A study of Mus musculus with 12 samples.

Results

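Forelimb buds lacking the transcription factor HAND2 were compared with wild-type forelimb buds in 6 RNA sequencing libraries, 3 per genotype, out of 12 libraries in the study. The 6 were taken by their genotype and series labels, not by any measured value. The other 6 libraries belong to a comparison of Tbx3 genotypes at an earlier stage and entered 1 alternative fit only. The wild-type libraries are called WT1 to WT3 below and the Hand2-deficient libraries HD1 to HD3, by their replicate numbers. Each library held the RNA of 1 pair of forelimb buds of the Swiss albino strain, at E10 to E10.25 (31 to 33 somites).

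Wild-type embryos had the genotype Prrx1-Cre;Hand2+/+ and Hand2-deficient embryos the genotype Prrx1-Cre;Hand2Δ/Δc, in which 1 Hand2 allele is deleted and the other is inactivated by Cre. Both groups therefore carried the Cre transgene. Prrx1-Cre acts in the mesenchyme of the limb bud, so that cells of other origin in the same bud (surface ectoderm, endothelium, blood, incoming muscle precursors) are not its target. Buds were collected whole. In such bulk samples, fewer cells of a type and less RNA per cell cannot be told apart.

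HAND2 is a basic helix-loop-helix factor of the posterior limb bud mesenchyme, where it is required to switch on Shh, the gene of the polarising signal. HAND2 and GLI3, the repressor that dominates the anterior mesenchyme, oppose each other before SHH signalling starts. SHH then acts through its receptor PTCH1 on the GLI factors, keeps the distal HoxD genes and the BMP antagonist gene Grem1 active, and is linked to the fibroblast growth factors (FGFs) of the apical ridge in a feedback loop. The comparison asks which genes of the early forelimb bud depend on HAND2.

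Total counts per library, in units of 1000000, ran from 60.2 to 68.6. The first principal component, with 44.3% of the variance, separated the genotypes. HD1 had 5.37% of its counts on a single ribosomal RNA gene, against at most 0.581% in the other 5. It differed from the other deficient replicates by a chi-square per gene of 209 and 223, against 23.7 to 29.6 for the other replicate pairs. The chi-square included the ribosomal RNA gene, so it is no separate sign that HD1 differs. By Xist and Y-linked counts, WT1, WT2 and HD2 were female and the other 3 libraries male. Of the forelimb mesenchyme genes, Prrx1 was at 505 to 737 CPM (counts per 1000000 after TMM scaling) and Tbx5, the T-box gene of the forelimb, at 80.1 to 106 CPM over the 6 libraries. Tbx4 and Pitx1, which mark the hindlimb, were at 2.27 to 4.52 and 0.635 to 3.28 CPM. The p-values below measure the spread between these 6 libraries. The labels name no litter and no day of dissection or sequencing.

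Hand2 was all but absent from the deficient buds. Hand2 (ENSMUSG00000038193, GRCm38 chromosome 8, 57320983 to 57324633, plus strand) was at 119.6, 120.3 and 126 CPM in the 3 wild-type libraries and at 0.187, 2.21 and 0.384 CPM in the 3 deficient libraries. The groups were far apart, and HD2 kept the highest remaining level. The log2 fold change, deficient over wild type, was -7.01 ± 0.55 (SE) with an adjusted p of 0.00164 in edgeR's quasi-likelihood test with Benjamini-Hochberg adjustment, which gives every adjusted p below unless another tool is named. It was -8.70 with HD2 left out. An expected count sums all exons of a gene, and the labels do not say which part of Hand2 the alleles lack.

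Hand2os1, a non-coding transcript from the opposite strand that overlaps Hand2 (57281117 to 57324233), moved the other way. It was at 6.90, 8.79 and 8.25 CPM in the wild types and at 20.8, 26.7 and 21.4 CPM in the deficient buds, with no overlap (log2 fold change 1.52 ± 0.13, adjusted p = 0.00213). Whether the counting used the strand is not given, so reads of Hand2 and Hand2os1 in the shared stretch cannot be told apart. Downstream of Hand2 the intergenic transcript Gm34030 (57331692 to 57334585) rose from 3.46 to 11.3 CPM (log2 fold change 1.70, adjusted p = 0.00213). 5033428I22Rik, which overlaps it on the other strand, was at 5.26 and 8.27 CPM and did not pass (adjusted p = 0.0685). Gm34030 and 5033428I22Rik were looked up for their place, after the values were seen.

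Of 17488 genes tested, 1836 (10.5%) were called at an adjusted p under 0.05, 818 higher (4.68%) and 1018 lower (5.82%) in the deficient buds. The median log2 fold change was 0.59 among genes called higher and -0.26 among genes called lower, against 0.013 over all genes tested. At least 2-fold changes were found for 317 called genes, of which 214 were higher and 103 lower. Of the called genes 1835 had no overlap between the 3 deficient and the 3 wild-type libraries, as had 6677 of all genes tested (38.2%). Each library was also left out in turn, which gives 6 fits, and 183 of the called genes (1.05% of those tested) were called in all 6 of them, 79 higher and 104 lower. These are described below as kept. Where a call is said to end without several libraries, each was left out alone. The count of called genes ran from 218 without WT3 to 2223 without WT2, and was 487 without HD1, the library rich in ribosomal RNA. With embryo sex as a covariate it was 526, with 272 higher and 254 lower.

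**Figure D1:**
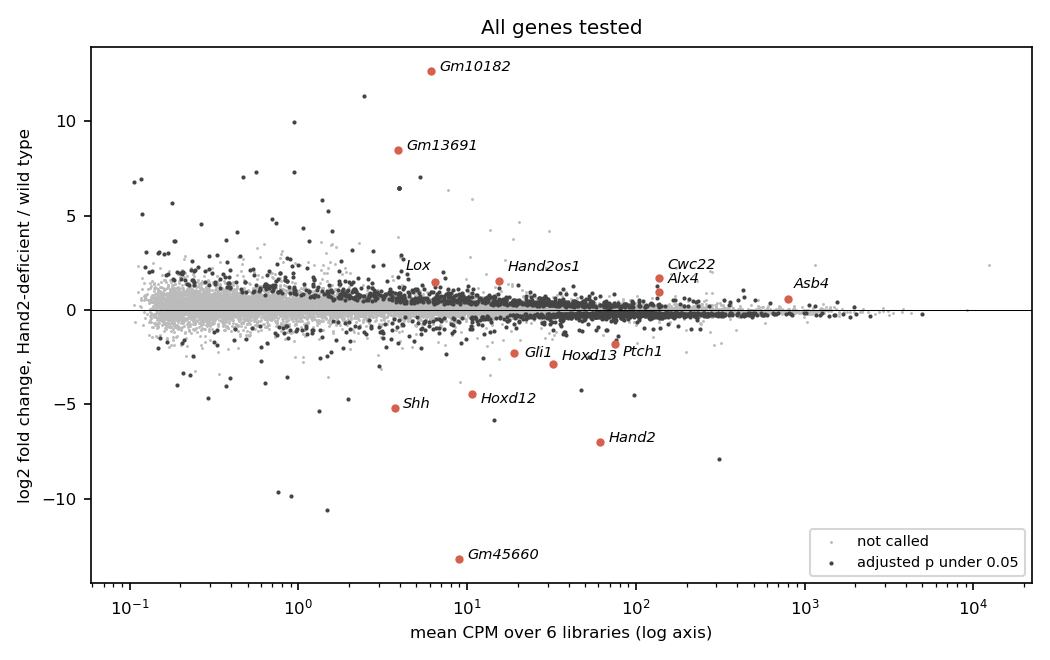
Log2 fold change (deficient over wild type, vertical axis) against the mean CPM over 6 libraries (horizontal log axis) for the 17488 genes tested, with the 1836 called genes dark and 14 genes named in red. Shh, Hoxd12, Hoxd13, Gli1 and Ptch1 lie with Hand2 below 0, Alx4, Asb4, Lox, Cwc22 and Hand2os1 above it. Fitted values of genes at 0 in 1 group, such as Gm10182 and Gm45660, depend on the prior count and are no measure of size.

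Most genes of the posterior mesenchyme fell. Of 15 tested, 9 fell and 0 rose, where 5.82% of all genes were called lower, and 8 of the 9 were kept. Their median log2 fold change was -0.99, against 0.013 over all genes tested. The list contains Hand2 itself, and it shares Hoxd12, Hoxd13, Grem1, Cyp1b1 and Bmp2 with the list of Hedgehog response genes below. Without HD1, 8 members were called lower.

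Shh, the signal made by the posterior organiser of the limb bud, was at 4.21, 10.2 and 7.48 CPM in the wild types and at 0.0340, 0.442 and 0.103 CPM in the deficient buds. The wild types varied among themselves, yet the lowest of them was well above the highest deficient library, HD2 (log2 fold change -5.20 ± 0.69, adjusted p = 0.0108). With HD2 left out it was -6.65. Hoxd13, the most distal HoxD gene, had 46.1, 58.5 and 66.1 CPM in the wild types and 5.59, 10.2 and 7.66 CPM in the deficient buds (-2.86 ± 0.23, adjusted p = 0.00174). Hoxd12 had 9.78, 27.9 and 23.6 CPM in the wild types and 0.662, 1.19 and 0.901 CPM in the deficient buds (-4.47 ± 0.44, adjusted p = 0.00374). Hoxd11 had 65.7, 98.9 and 105 CPM against 17.2, 16.6 and 13.6 CPM (-2.51 ± 0.19, adjusted p = 0.00145). In all 3 of these HoxD genes WT1 was the lowest wild type and no library crossed into the other group.

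Grem1, which encodes the BMP antagonist of the limb bud, fell from 45.5, 57.2 and 62.3 CPM to 19.96, 26.35 and 19.52 CPM (log2 fold change -1.33 ± 0.15, adjusted p = 0.00668). Ets2, an ETS factor that acts in Shh expression, had a narrow spread in both groups, with 224, 222 and 233 CPM in the wild types and 124, 127 and 131 CPM in the deficient buds (-0.83 ± 0.042, adjusted p = 0.000288). Sall1, a zinc finger factor of distal limb development, fell from a mean of 53.02 to 23.26 CPM (-1.19, adjusted p = 0.00374). Osr1, another zinc finger factor gene, fell from 14.3 to 7.18 CPM (adjusted p = 0.0197). The Osr1 call ended without WT3, HD1 or HD3 (adjusted p = 0.0789, 0.0598 and 0.0648).

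The members that did not pass were the T-box repressor genes Tbx2 and Tbx3, Hoxd10, Cyp1b1, Bmp2 and Tfap2b. Tbx3 was at 89.4, 87.6 and 74.9 CPM in the wild types and at 82.5, 63.6 and 67.5 CPM in the deficient buds. These ranges overlapped (adjusted p = 0.175). Hoxd10, the next HoxD gene after Hoxd11, was at 69.1, 60.4 and 73.1 CPM against 51.8, 61.9 and 52.3 CPM, also overlapping (adjusted p = 0.0842). It was called without WT2 (adjusted p = 0.0462) and by DESeq2 (0.0191). Bmp2 (4.22 and 3.17 CPM, adjusted p = 0.0771) and the cytochrome gene Cyp1b1 (17.2 and 8.73 CPM, adjusted p = 0.0658) had no overlap between the groups. Cyp1b1 was called by DESeq2 (0.00109), with no filter on low counts (0.0385), among protein-coding genes alone (0.0487) and with all 12 libraries in 1 fit (0.0296).

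Genes that respond to Hedgehog signalling fell together. Of 12 tested, 10 fell and 0 rose, 7 of them kept, with a median log2 fold change of -1.50. Bmp2 and Cyp1b1 were the 2 members that did not pass. All 12 had the 3 deficient libraries below the 3 wild types, as had 19.5% of all genes tested. Without HD1, 9 were called lower.

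Gli1, the GLI activator whose transcription reads out the pathway, was at 29.4, 33.2 and 31.5 CPM in the wild types and at 5.26, 7.78 and 6.47 CPM in the deficient buds (log2 fold change -2.27 ± 0.14, adjusted p = 0.000686). Ptch1, which encodes the SHH receptor and is itself induced by SHH, was at 108, 121 and 119 CPM against 30.3, 38.9 and 32.3 CPM (-1.78 ± 0.096, adjusted p = 0.00032). In both genes the lowest wild type stood far above the highest deficient library, and transcript remained in every deficient library. Prdm1, a transcriptional repressor gene, was at 14.98, 14.66 and 14.06 CPM against 5.08, 5.35 and 4.70 CPM (-1.53 ± 0.082, adjusted p = 0.00032).

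The 3 other members called lower were less firm. Hhip, which encodes a Hedgehog-binding inhibitor, fell from 4.64 to 1.68 CPM (log2 fold change -1.47, adjusted p = 0.0162), and its call ended without WT1, WT3 or HD3 (adjusted p = 0.0559, 0.0604 and 0.0573). The NOTCH ligand gene Jag1 fell from 22.2 to 16.4 CPM (adjusted p = 0.0186), a call that ended without WT3 (0.0788) and HD3 (0.0617). The cytokine receptor gene Cntfr fell from 25.8 to 13.3 CPM (adjusted p = 0.0457), and of the 6 fits only that without HD2 called it (adjusted p from 0.0421 to 0.124). With embryo sex as a covariate it was not called (0.0666).

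Over both lists together, 16 of 22 genes were called lower with all libraries and 12 to 16 with 1 library left out. HD2, which had the most Hand2 left, lay nearest to the wild-type mean in 12 of these 16 genes. Hand2 itself is 1 of the 12, by the way HD2 was singled out. HD2 was also the only female deficient library, and a relation to its Hand2 level was not tested. HD2 was the nearest of the 3 deficient libraries in 54.6% of all genes called lower and 44.9% of all called higher. WT1 was the wild type nearest to the deficient mean in 12 of the 16, against 193 of the 1018 genes called lower.

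**Figure D2:**
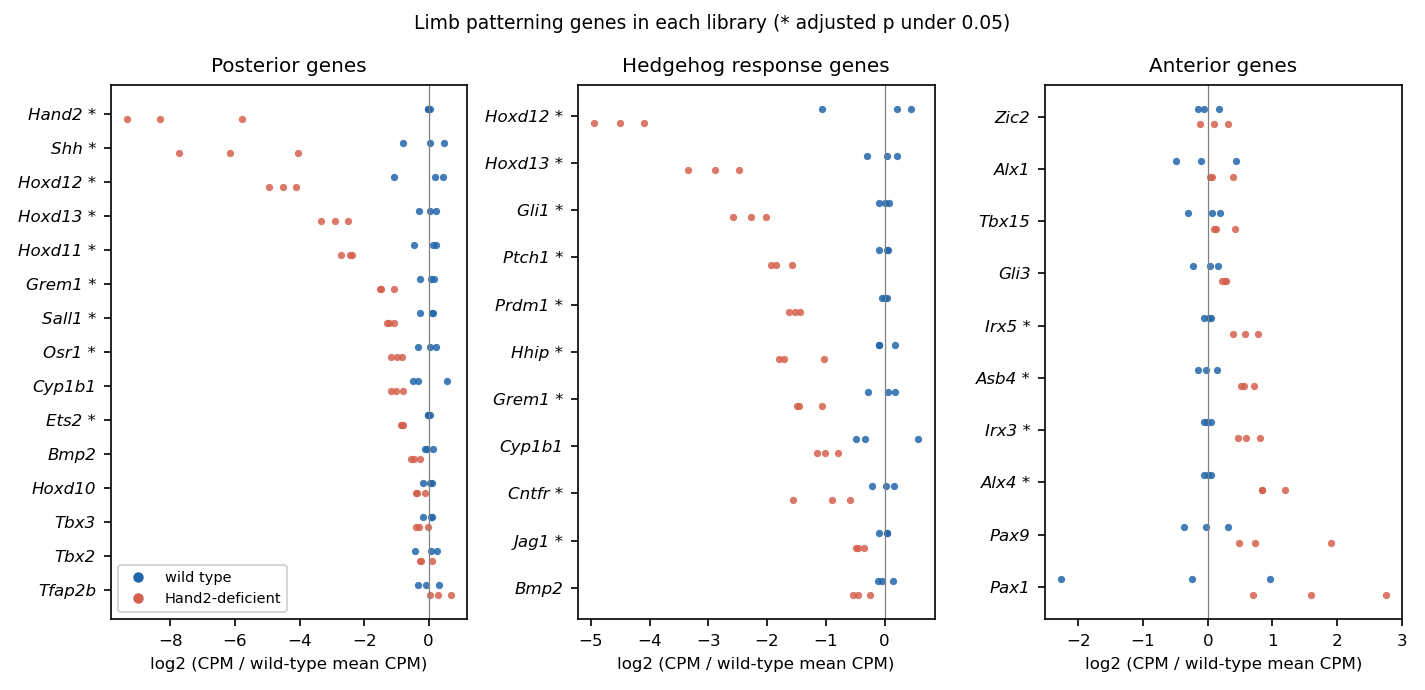
Level of members of 3 gene lists in each library, as log2 of CPM over the wild-type mean (horizontal axis), for posterior genes, Hedgehog response genes and anterior genes, with wild types in blue and deficient buds in red. Called genes carry an asterisk: 9 of 15 posterior genes and all Hedgehog response genes drawn but Bmp2 and Cyp1b1 are called lower in the deficient buds, and Alx4, Asb4, Irx3 and Irx5 higher. A few members are not drawn.

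Some anterior mesenchyme genes rose. Of 12 tested, 5 rose and 0 fell, where 4.68% of all genes were called higher, with a median log2 fold change of 0.595, and 2 of the 5 were kept. Alx4, a homeobox gene of the anterior limb bud, was at 89.2, 93.1 and 96.5 CPM in the wild types and at 214, 167 and 166 CPM in the deficient buds (log2 fold change 0.97 ± 0.10, adjusted p = 0.00448). Asb4, which encodes a subunit of a ubiquitin ligase complex, was at 572, 624 and 701 CPM against 1038, 906 and 933 CPM (0.60 ± 0.085, adjusted p = 0.0131). Neither gene overlapped between the groups, and HD1 was the highest library for both. The count was 2 without WT3, 3 without HD3 and 4 without HD1.

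The Iroquois homeobox genes Irx3 and Irx5 rose from 105 to 162 CPM (adjusted p = 0.011) and from 29.4 to 44.2 CPM (0.0196). The Irx3 call ended without WT3 (0.0584), that of Irx5 without WT1, WT3 or HD3 (0.0569, 0.0831 and 0.0617) and with the sex covariate (0.0517).

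Gli3 was at 263, 220.2 and 288 CPM in the wild types and at 311, 314 and 301 CPM in the deficient buds. All 3 deficient libraries were above the wild types, but the difference did not pass (log2 fold change 0.26 ± 0.093, adjusted p = 0.105), except by DESeq2 (0.026). The paired box gene Pax9 was at 0.327 and 0.742 CPM, also without overlap (adjusted p = 0.113). Pax1 was at 1.127, 10.52 and 4.595 CPM against 36.5, 8.82 and 16.4 CPM, a spread wider than the difference between the groups (adjusted p = 0.145). Alx1, Tbx15 and Zic2 overlapped between the groups, with log2 fold changes from 0.11 to 0.22.

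HAND2 is known to bind E-box sequences, and the letters CATCTG (or CAGATG, the same word on the other strand) were looked for in the 250 bases before the start of each gene. RefSeq promoters of GRCm38.p6 were at hand for 20 of the 34 anterior, posterior and Hedgehog response genes tested, and 3 of them held the word. They are shown because Hand2 and its antagonist Gli3 are at the base of the posterior and anterior patterns and Asb4 is 1 of the 2 kept anterior genes. Each runs along the strand of its gene, towards the start, and capitals mark the E-box. All 3 genes are on the plus strand, and the stretches are chr8:57320733-57320982, chr6:5390160-5390409 and chr13:15463473-15463722.
Hand2: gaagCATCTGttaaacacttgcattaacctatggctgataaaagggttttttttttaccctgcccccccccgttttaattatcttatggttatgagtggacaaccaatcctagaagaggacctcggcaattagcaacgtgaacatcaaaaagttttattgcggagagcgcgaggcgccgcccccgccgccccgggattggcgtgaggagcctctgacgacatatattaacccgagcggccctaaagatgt
Asb4: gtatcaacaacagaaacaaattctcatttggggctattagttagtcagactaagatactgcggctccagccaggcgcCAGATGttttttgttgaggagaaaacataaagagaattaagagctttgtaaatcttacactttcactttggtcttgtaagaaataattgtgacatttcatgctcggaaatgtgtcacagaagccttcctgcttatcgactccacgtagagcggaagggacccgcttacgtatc
Gli3: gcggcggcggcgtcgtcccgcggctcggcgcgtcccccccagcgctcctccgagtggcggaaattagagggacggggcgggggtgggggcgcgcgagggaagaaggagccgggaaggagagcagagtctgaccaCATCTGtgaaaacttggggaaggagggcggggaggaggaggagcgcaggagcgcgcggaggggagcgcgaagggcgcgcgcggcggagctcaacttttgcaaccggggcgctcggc

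The word begins 246 bases before the RefSeq start of Hand2, 173 before a RefSeq start of Asb4 and 116 before that of Gli3. Asb4 had another RefSeq promoter, which did not hold the word. The bases that follow the start were found in a GENCODE transcript of the gene for Hand2 and Gli3 but not for Asb4. The gene spans used for the counts begin earlier for Asb4 (5383386) and Gli3 (15463235), so that these 2 stretches lie inside them. A gene counted as holding the word if any of its promoters did. So counted, 16.3% of the 27025 genes with a RefSeq promoter held it, and 12.1% of such genes tested. Among genes called that had a promoter, 14.1% of those higher and 10.7% of those lower held it. The GLI core GACCACCCA (or TGGGTGGTC), the word known from GLI target sites, was held by 0.255% of the 27025 and by 0 of the 20. A match is a description of these letters, not a binding site, and distal enhancers were not searched.

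Among genes for the release, reception and transduction of the Hedgehog signal, 4 of 14 tested rose and 0 fell, with a median log2 fold change of 0.21. The count was 1 without WT3 and 2 without HD3. Of all genes tested, 4.68% were called higher. Disp1, which encodes the protein that releases SHH from the producing cell, was at 57.0, 55.9 and 60.5 CPM in the wild types and at 77.1, 72.2 and 75.0 CPM in the deficient buds, with no overlap (0.37 ± 0.042, adjusted p = 0.00603), and was kept. The 3 SHH co-receptor genes rose by similar factors, Gas1 from 327 to 478 CPM, Cdon from 167 to 246 CPM and Boc from 42.0 to 63.2 CPM (adjusted p = 0.0102, 0.0171 and 0.0254). Gas1 lost its call without WT3 (0.0542), and Cdon without WT3 (0.0611) and HD3 (0.0527). Boc lost it without WT1, WT3, HD1 or HD3 (0.0616, 0.0836, 0.0582 and 0.0653) and with the sex covariate (0.055). Smo, the signal transducer (329 and 304 CPM), Gli2 (94.8 and 105 CPM) and Sufu (101 and 96.9 CPM) did not pass.

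Among the Hox clusters the large changes were in distal HoxD. Of 9 HoxD genes tested, 3 fell, Hoxd13, Hoxd12 and Hoxd11, and 0 rose. Gm28309, a transcript that overlaps Hoxd11 and Hoxd10 on the same strand and was picked for its place after the values were seen, had 15.4, 24.6 and 23.8 CPM in the wild types and 3.55, 3.98 and 3.32 CPM in the deficient buds. Its log2 fold change was -2.56 ± 0.19 (adjusted p = 0.00145), close to the -2.51 of Hoxd11, with which its reads may be shared. Further along the cluster Hoxd9 was at 145 and 142 CPM (adjusted p = 0.859) and Hoxd8 at 62.0 and 54.6 CPM (0.409). In the HoxA cluster Hoxa11, a gene of the middle limb segment, fell from 94.4 to 69.5 CPM (adjusted p = 0.0449), called in 1 of the 6 fits without 1 library (0.0193 to 0.134). Hoxa13 was at 1.79 and 0.323 CPM and did not pass (0.0749). Hoxa2 and Hoxa3 rose (0.69 and 0.46 on the log2 scale, adjusted p = 0.0315 and 0.0363).

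Of 16 HoxB and HoxC genes, which pattern the trunk more than the limb, 5 rose and 0 fell, with a median log2 fold change of 0.49. They were Hoxb3, Hoxc4, Hoxc6, Hoxc8 and Hoxc9. Hoxc6 had the smallest adjusted p (0.0102), at 26.9, 24.5 and 24.2 CPM in the wild types and 35.7, 35.3 and 33.3 CPM in the deficient buds, with no overlap. Its call ended without WT3 (0.0513). No member of this list was kept: the fit without WT3 called 0, the fits without HD1, HD2 or HD3 called 1 each, and that without WT1 called 7. For Hoxa2, Hoxa3, Hoxb3, Hoxc4, Hoxc8 and Hoxc9 the adjusted p reached 0.0844, 0.107, 0.103, 0.104, 0.132 and 0.111 without 1 library. With the sex covariate Hoxc8 (0.0762), Hoxc9 (0.0693) and Hoxa11 (0.0561) were not called.

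Early limb mesenchyme genes split. Of 19 tested, 5 rose and 4 fell, with a median log2 fold change of 0.19. Sall3, the paralogue of Sall1, was at 46.6, 51.7 and 58.0 CPM in the wild types and at 23.7, 23.2 and 18.99 CPM in the deficient buds (-1.25 ± 0.11, adjusted p = 0.00217). Snai1, a repressor gene of mesenchymal cells, was at 84.1, 73.1 and 75.8 CPM against 57.1, 51.0 and 56.3 CPM (-0.50 ± 0.065, adjusted p = 0.0101). These 2 were kept and had no overlap between the groups. Snai2 went the other way, from 22.6 to 31.2 CPM (adjusted p = 0.0294), as did the homeobox genes Prrx2, from 139.6 to 202 CPM (0.021), and Lhx9, from 272 to 395 CPM (0.022). Of these, Snai2 and Prrx2 lost the call without WT1, WT3 or HD3, at most at 0.107 and 0.0767, Snai2 also without HD1 (0.086) and with the sex covariate (0.0674). Lhx9 lost it without WT1, HD1 or HD3 (0.0774, 0.0681 and 0.0637).

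Genes of the proximal limb were mixed. Of 10 tested, 3 rose and 0 fell, with a median log2 fold change of 0.17. Of those that did not pass, 4 had all deficient libraries below the wild types, a position that 19.5% of all genes tested had. Among these 4, Osr2, an odd-skipped zinc finger gene, was at 7.45 and 1.95 CPM (adjusted p = 0.0584). Shox2, a homeobox gene of the proximal skeleton, was at 165 and 107.5 CPM (0.0513). DESeq2 called 3 members lower and the fit with the sex covariate 1. Meis1, a homeobox gene of the proximal segment, was at 82.4, 81.9 and 75.4 CPM in the wild types and at 112, 114 and 103 CPM in the deficient buds (0.46 ± 0.055, adjusted p = 0.00793). It was kept, with no overlap between the groups. Pbx3, which encodes a partner of the MEIS proteins, was at 64.8 and 72.4 CPM (adjusted p = 0.0443) and lost its call in all 6 fits (0.075 to 0.148).

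A few genes of FGF signalling fell, where 5.82% of all genes tested were called lower. In the list of FGF ligands, receptors and feedback genes 4 of 18 fell and 0 rose, with a median log2 fold change of 0.012. In the list of ridge and ectoderm genes, which shares Fgf8, 4 of 16 fell and 1 rose, with a median of -0.16. Spry4, an inhibitor that FGF signalling induces, was at 58.2, 56.6 and 60.1 CPM in the wild types and at 40.0, 38.3 and 43.6 CPM in the deficient buds (-0.52 ± 0.054, adjusted p = 0.00448), and was kept. Fgf8, the ligand of the whole ridge, was at 37.3, 48.4 and 47.1 CPM against 24.7, 25.5 and 28.7 CPM, with no overlap (-0.75 ± 0.11, adjusted p = 0.0144). Its call ended without WT3 (0.062).

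Fgf4, a ridge ligand that depends on the posterior signal, was at 1.03, 3.81 and 2.59 CPM in the wild types and at 0.475, 0.533 and 0.384 CPM in the deficient buds (log2 fold change -2.41 ± 0.47, adjusted p = 0.0294). Fgf9 (1.63 to 0.767 CPM, adjusted p = 0.0296) and the mesenchymal ligand gene Fgf10 (40.2 to 26.2 CPM, adjusted p = 0.0387) fell as well. All 3 were called in 2 of the 6 fits without 1 library (adjusted p up to 0.0954, 0.106 and 0.132), and 0 of the 3 with the sex covariate (0.0637, 0.0647 and 0.0746). Fgf4 was not called by limma-voom (0.0595). The ectoderm markers as a list had 0 of 16 called, at a median log2 fold change of -0.02. Other readouts of FGF signalling, Dusp6 (208 and 227 CPM), Etv4 (66.2 and 60.4 CPM), Etv5 (125.4 and 125.0 CPM), Spry1 and Spry2, did not pass (adjusted p from 0.145 for Dusp6 to 0.968 for Etv5).

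In the BMP list 2 of 22 rose and 1, Grem1, fell, with a median log2 fold change of 0.18. This count and that of the TGF-beta list below are near the 10.5% of all genes tested that were called. Id2, a gene induced by BMP signals, was at 94.2, 93.6 and 90.4 CPM in the wild types and at 120.0, 130.9 and 133 CPM in the deficient buds (0.47 ± 0.047, adjusted p = 0.00405), and was kept. The ligand gene Gdf6 rose from 7.88 to 11.7 CPM (adjusted p = 0.0162) but not without WT3 (0.0767) or in the fit with all 12 libraries (0.0594). Bmp4 was at 56.0 and 57.3 CPM and Bmp7 at 90.9 and 98.7 CPM (adjusted p = 0.813 and 0.188). Of 17 TGF-beta and activin genes, 2 rose and 0 fell. Tgfb2 was the kept one, with 48.2, 51.2 and 38.9 CPM against 81.1, 72.6 and 75.6 CPM (0.73 ± 0.10, adjusted p = 0.0115).

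No call in the other signalling lists was kept. Of 28 WNT genes, 4 fell and 1 rose, where 10.5% of all genes tested were called in either direction. The antagonist gene Dkk1 fell from 14.8 to 10.6 CPM (adjusted p = 0.0152, but 0.0615 without WT3 and 0.0547 without HD3), and Wif1, another antagonist, rose from 10.9 to 19.5 CPM (0.0247, and 0.02 to 0.0898 without 1 library). Of 17 retinoic acid genes 2 rose, among them the reductase gene Dhrs3, called in 1 of the 6 fits. Aldh1a2, the main synthesis enzyme of the embryo, was at 8.84 and 20.5 CPM (adjusted p = 0.378). Of 16 NOTCH genes 2 fell, Jag1 and the target gene Hey1, which went from 32.2 to 24.6 CPM (0.0438, up to 0.143 without 1 library). With the sex covariate Wif1, Dhrs3 and Hey1 were not called (0.0515, 0.0711 and 0.0798).

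Some genes of cell division fell by small amounts. Of 28 DNA replication and G1/S genes 12 fell and 0 rose, with a median log2 fold change of -0.17. Ccnd1, the D-type cyclin of G1, was at 267, 257 and 285 CPM in the wild types and at 194, 199 and 173 CPM in the deficient buds, with no overlap (-0.52 ± 0.067, adjusted p = 0.0101). It was the only kept member. Of the others Mcm10, an initiation factor, fell from 114 to 94.9 CPM (adjusted p = 0.0113) and Ccne2, an E-type cyclin, from 43.0 to 32.0 CPM (0.0191), with the remaining falls between -0.14 and -0.30 on the log2 scale. The count depended on the libraries: it ran from 1 (without WT3, and without HD3) to 11 with 1 library left out, was 5 without HD1, and under the sex covariate was 3. Mcm10 lost its call without WT3 (0.0604) and HD3 (0.0512), and Ccne2 without WT1, WT3 or HD3 (0.0702, 0.0805 and 0.0617).

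Cdk6, the kinase partner of the D-type cyclins, was outside the lists and picked after its values were seen. It was at 83.4, 74.6 and 78.2 CPM in the wild types and at 34.3, 43.0 and 36.1 CPM in the deficient buds (-1.06 ± 0.087, adjusted p = 0.00188), and was kept. Of 22 mitosis genes 4 fell by 0.16 to 0.21 on the log2 scale (Ccnb1, Kif20a, Cdc20 and Aurka), and members were called only without WT2 (2) and without HD2 (3) among the 6 fits, with 0 under the sex covariate. Of 5 inhibitors of cyclin-dependent kinases tested 3 rose, Cdkn1b (36.6 to 46.2 CPM), Cdkn2c (2.17 to 3.51 CPM) and Cdkn2d (13.8 to 16.8 CPM), with adjusted p of 0.0274, 0.0267 and 0.0457. Their adjusted p reached 0.10, 0.0921 and 0.14 without 1 library, and 0 of the 3 were called with the sex covariate. Cdkn1a, the p53 target among them, was at 9.64 and 6.23 CPM and did not pass (0.0989). Of 26 p53 targets and cell death genes 2 rose and 1 fell, near the 10.5% of all genes tested that were called. The list's median log2 fold change was 0.013, with calls in only 1 of the 6 fits, that without WT2. Bcl2, the survival gene, also picked after its values were seen, was kept, at 25.9, 26.6 and 25.3 CPM against 19.5, 19.1 and 17.2 CPM (-0.48 ± 0.066, adjusted p = 0.0119).

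**Figure D3:**
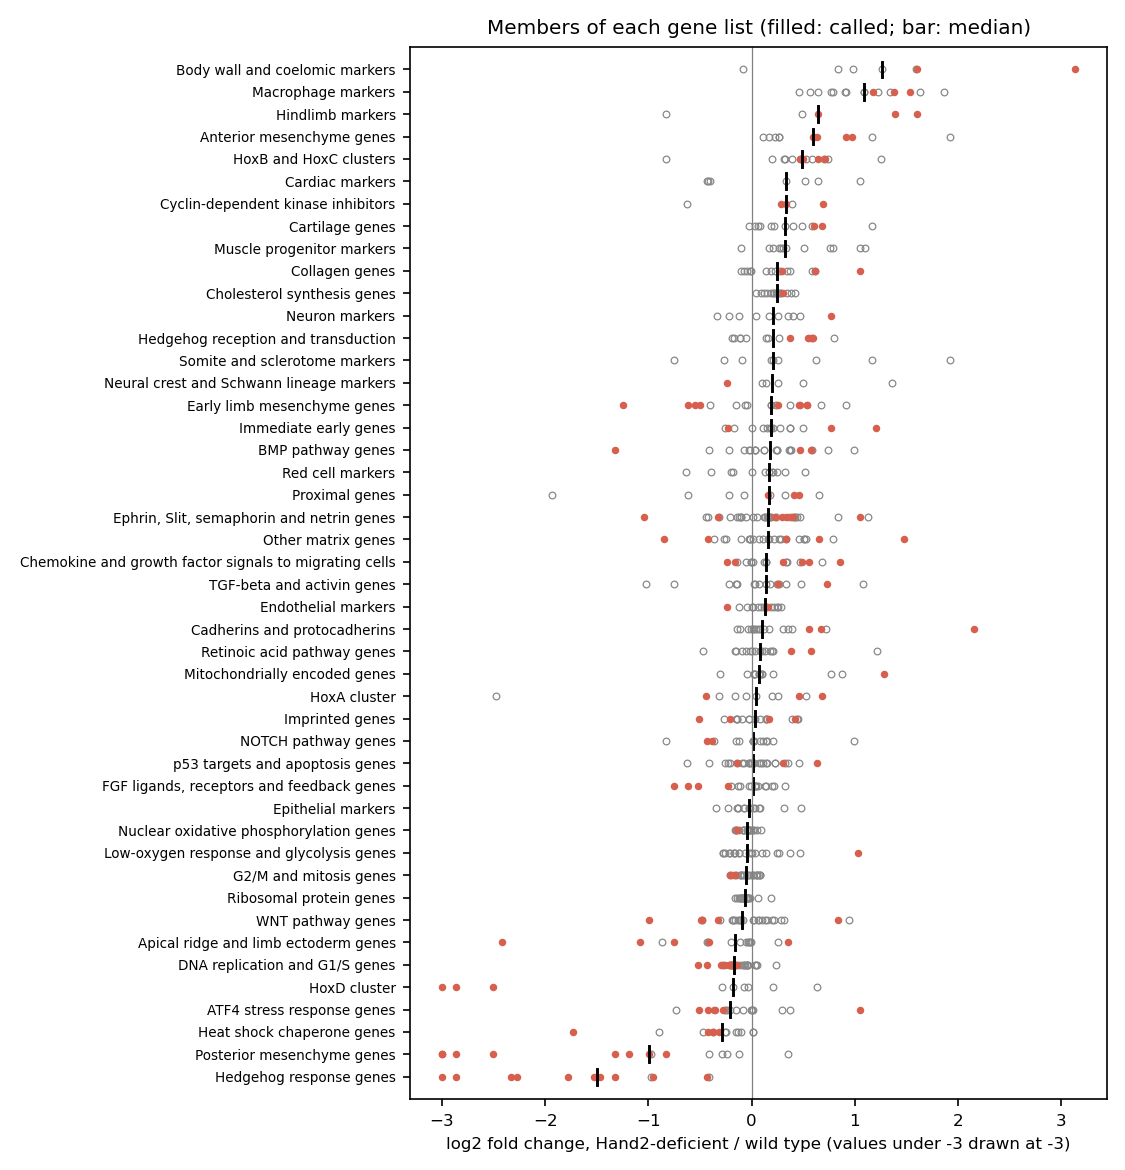
Log2 fold change (horizontal axis, deficient over wild type) of every member tested in each gene list, filled where called (values under -3 are drawn at -3), with a bar at the list's median. The Hedgehog response and posterior lists have the lowest medians (-1.50 and -0.99), and most other lists lie near the median of all genes, 0.013.

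In the matrix, collagen and cartilage lists only Lox was kept. These lists were not below the 10.5% of all genes tested that were called. Outside them the matrix genes Frem1 and Adamts4, described below, were kept. Lox, the enzyme that cross-links collagen and elastin, was at 3.10, 4.54 and 2.59 CPM in the wild types and at 9.42, 9.18 and 9.86 CPM in the deficient buds (1.48 ± 0.20, adjusted p = 0.0112), and was kept. Of 26 matrix genes 3 rose and 2 fell. Smoc1, a matrix protein gene that modulates BMP signals, fell from 46.2 to 25.7 CPM (adjusted p = 0.0199), but not without WT3, HD1 or HD3 (0.078, 0.0588 and 0.0662). Of 16 collagen genes 3 rose and 0 fell, with a median log2 fold change of 0.25, but without WT3, HD1 or HD3 and with the sex covariate 0 collagen and 0 cartilage genes were called. Col1a2 had the smallest adjusted p, with 220.1, 341 and 281 CPM in the wild types and 677, 494 and 577 CPM in the deficient buds (1.05 ± 0.17, adjusted p = 0.0202). It was not called without WT3, HD1 or HD3 (0.0829, 0.0557 and 0.0618) or with the sex covariate (0.0513). Of 13 cartilage genes 2 rose and 0 fell, Sox5 (23.99 to 36.46 CPM, adjusted p = 0.0372) and Sox8 (7.78 to 12.5 CPM, 0.0432), called in 2 and 0 of the 6 fits. Neither passed with the sex covariate (0.0517 and 0.0773). Sox9, the cartilage master regulator, was at 66.4 and 70.2 CPM (adjusted p = 0.778).

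Genes of cell guidance and contact changed in both directions, where 10.5% of all genes tested were called. Of 35 ephrin, Slit, semaphorin and netrin genes 6 rose and 2 fell, but only 1 rose without WT3, HD1 or HD3 and with the sex covariate. Unc5c, a netrin receptor, was at 50.2, 45.7 and 34.4 CPM in the wild types and at 19.9, 22.2 and 21.1 CPM in the deficient buds (-1.04 ± 0.13, adjusted p = 0.01). Epha7, an ephrin receptor, was at 59.7, 63.5 and 58.9 CPM against 76.2, 79.0 and 77.2 CPM (0.35 ± 0.038, adjusted p = 0.005). These 2 were kept, with no overlap between the groups. Of 18 cadherins and protocadherins 3 rose and 0 fell (0 without WT3), among them Cdh8, from 0.196 to 0.877 CPM (adjusted p = 0.0115, but 0.0604 without WT3). Of 18 genes for signals to migrating cells 4 rose and 2 fell, 0 of them kept and 0 called without HD3. Igfbp5, which binds insulin-like growth factors, rose from 411 to 603 CPM (0.0194, but 0.0629 without HD3).

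The lists of cell stress and metabolism genes held no kept call besides Egr1. Outside the lists some such genes were kept, among them Mt2, described below. Of 15 immediate early genes, which respond fast to signals and to handling, 2 rose and 1 fell. Egr1 was at 2.25, 2.27 and 2.69 CPM in the wild types and at 5.08, 5.77 and 5.74 CPM in the deficient buds (1.20 ± 0.12, adjusted p = 0.00378), and Fos, with 0.546 and 0.772 CPM, did not pass. Of 14 heat shock chaperone genes 4 fell and 0 rose, with a median of -0.28. Hspa1a went from 6.40, 5.20 and 6.39 to 1.36, 3.11 and 0.960 CPM (-1.73 ± 0.40, adjusted p = 0.0428). Of 17 genes of the ATF4 response 5 fell and 1 rose. The chaperone and ATF4 counts were 0 in both directions without WT1, WT3 or HD3 and with the sex covariate. Hspa1a was called only without HD2 (0.00803, with a log2 fold change of -2.38) and reached 0.132 otherwise.

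Housekeeping lists had few calls beside the 10.5% of all genes tested that were called, and the imprinted genes had more. Of 22 low-oxygen and glycolysis genes 1 rose, Adm, which encodes adrenomedullin (0.511 to 1.04 CPM, adjusted p = 0.0221), at a list median of -0.05. Of the 6 fits only that without WT2 called it (otherwise 0.0501 to 0.0854), and the sex covariate ended it (0.058). Of 22 ribosomal protein genes 0 were called by edgeR with a list median of -0.07, and DESeq2 called 3 lower. Outside these 22, Rpl34 and Rps18, picked after their values were seen, were called higher and kept (adjusted p = 0.00222 and 0.00142). Each has a pseudogene that fell, described below. Of 19 nuclear genes of oxidative phosphorylation 1 fell, and of 16 cholesterol synthesis genes 1 rose, at a list median of 0.24, with 9 by DESeq2. Of 15 mitochondrially encoded genes 1 rose, mt-Nd3, from 71.5, 82.7 and 80.9 to 140.4, 231 and 199 CPM (1.28 ± 0.17, adjusted p = 0.0108), although mt-Co1 (3754 and 3952 CPM, adjusted p = 0.387) and mt-Cytb (1500 and 1576 CPM, 0.413) did not pass. The mt-Nd3 call ended without WT3 (0.0529). Of 19 imprinted genes 2 rose, Peg3 and Peg10, and 2 fell, H19 and Snrpn, with 0 kept.

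The largest changes among well-annotated genes went beyond limb patterning. By the rule for named genes (a curated symbol, at least 5 CPM in the higher group, no overlap), the kept ones among the 20 largest falls were, besides those above, Gja3, Ano1 and Dok4, and Olfm1 and Frem1 were among the 10 genes with the smallest p. Gja3, a gap junction gene, was at 8.16, 8.04 and 9.43 CPM in the wild types and at 1.90, 1.97 and 2.45 CPM in the deficient buds (-2.02 ± 0.14, adjusted p = 0.000839). Olfm1, a secreted glycoprotein gene, was at 89.1, 94.8 and 89.9 CPM against 43.9, 44.3 and 44.2 CPM (-1.05 ± 0.034, adjusted p = 3.46e-05). Frem1, a basement membrane matrix gene, was at 59.1, 63.0 and 65.7 CPM against 28.9, 29.9 and 30.3 CPM (-1.08 ± 0.049, adjusted p = 0.000162). Replicates of Olfm1 and Frem1 differed by little within each group. Dok4, an adaptor of receptor tyrosine kinases, fell from 51.7 to 23.2 CPM (adjusted p = 0.00955), and Ano1, a chloride channel gene, from 9.59 to 4.13 CPM (0.011).

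Among the largest rises the kept ones were H2-T22, Cwc22, Hand2os1, Lox, Adamts4, Egr1, Mt2, Cav1 and Slc35f1. Cwc22, a splicing factor gene, was at 66.4, 61.1 and 64.9 CPM in the wild types and at 205, 190.0 and 232 CPM in the deficient buds (1.70 ± 0.078, adjusted p = 0.000162). H2-T22, a non-classical histocompatibility gene, was at 0.952, 1.06 and 0.816 CPM against 6.11, 5.77 and 9.76 CPM (2.93 ± 0.24, adjusted p = 0.00188). The groups did not overlap for either gene, and HD3 was the highest library for both, but both genes belong to families of near-identical copies, so that reads may be assigned to the wrong member. Adamts4, a matrix protease gene, rose from 4.20 to 9.67 CPM (1.20 ± 0.11, adjusted p = 0.00281). Mt2, a metallothionein gene, rose from 4.85 to 10.6 CPM (0.00805), and Cav1, the caveolin of membrane pits, from 6.84 to 14.9 CPM (0.0138). The large rises of the urinary protein genes Mup9 and Mup10, of Zfp991 and Sned1 ended without WT3 (adjusted p = 0.0919, 0.067, 0.0529 and 0.0529), that of Mup9 also without HD3 (0.0662).

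Markers of cells that a bud sample could hold besides limb mesenchyme were measured as well. Macrophage markers were higher, with 3 of 16 called and a median log2 fold change of 1.09. Their summed level was 7.21, 11.3 and 7.45 CPM in the wild types and 25.8, 16.6 and 13.6 CPM in the deficient buds, without overlap and highest in HD1. The 3 called were C1qb, a complement gene (0.439 to 1.28 CPM, adjusted p = 0.0276), the mannose receptor gene Mrc1 (1.14 to 2.97 CPM, 0.0428) and the leukocyte gene Ptprc (0.394 to 0.894 CPM, 0.0497). Without WT1, WT3, HD1 or HD3 in turn, and with the sex covariate, 0 of the 16 were called. Csf1r, the receptor that defines the lineage, was at 2.05 and 3.87 CPM (0.0878). The part of these cells in the other rises was not tested.

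Hindlimb markers were low, and their sum was higher in the deficient buds, at 8.59, 8.94 and 8.83 CPM against 15.1, 13.9 and 13.9 CPM. Of 5 tested, 3 were called higher (Pitx1, Isl1 and Hoxc9). Tbx4 did not pass (adjusted p = 0.108), and the lowest log2 fold change of the list, -0.83, was not called. Isl1, a LIM homeobox gene of the lateral plate, was at 0.429, 0.349 and 0.454 CPM in the wild types and at 1.04, 1.31 and 1.39 CPM in the deficient buds (1.60 ± 0.21, adjusted p = 0.0108), and was kept. Pitx1 rose from 0.961 to 2.53 CPM (adjusted p = 0.0335), and in 5 of 6 fits without 1 library it was not called (up to 0.0936), nor with the sex covariate (0.0637). Of 7 body wall and coelomic markers 2 rose, Isl1 and Gata4, which was at 1.17, 0.204 and 0.333 CPM against 2.12, 7.30 and 5.52 CPM (adjusted p = 0.0402). The Gata4 call held in 1 of the 6 fits, that without WT1 (0.0342, with a log2 fold change of 4.21), and otherwise ended (0.051 to 0.137). The summed level of the body wall markers overlapped between the groups, at 139, 122 and 104 CPM against 118, 164 and 142 CPM.

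Epithelial, red cell, muscle progenitor, somite and cardiac markers had 0 members called by edgeR with all 6 libraries, of 16, 13, 12, 9 and 7 tested. With 1 library left out up to 4 red cell, 3 muscle and 1 cardiac marker were called higher and 1 somite marker lower, and DESeq2 called 1 epithelial marker lower, 1 red cell and 3 muscle markers higher and 1 somite marker lower. Endothelial markers had 1 of 16 higher (Cdh5) and 1 lower (Ets1, also counted as the 1 of 6 neural crest markers called), and neuron markers 1 of 10 higher (Stmn2), 0 of them kept. Their summed levels were 569, 584 and 565 CPM against 575, 620.1 and 617 CPM for endothelium, and 107, 116 and 108 CPM against 137, 118 and 125 CPM for neurons.

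**Figure D4:**
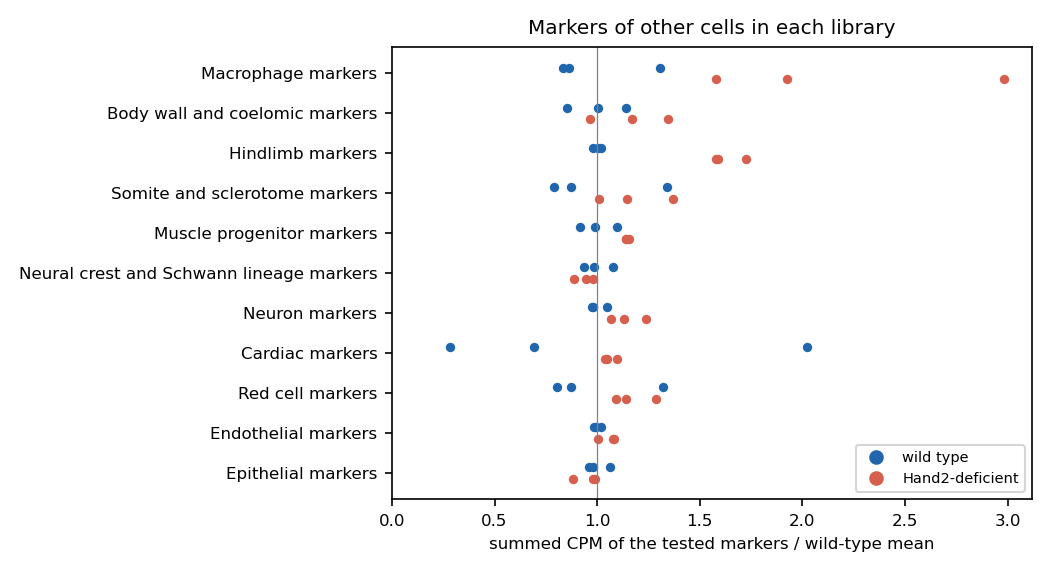
Summed CPM of the markers of each other cell type in each library, divided by the mean of the wild types (horizontal axis), with wild types in blue and deficient buds in red. Only the macrophage, hindlimb, muscle progenitor and neuron sums of the 3 deficient libraries lie above all 3 wild types.

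Under each of the 15 other settings, every gene called both there and with all 6 libraries had the same direction. These settings use libraries of the main fit, so the shared direction is no independent check. How many genes passed moved with the libraries and the model. Of the fits that left out 1 library, that without WT3 gave the fewest (218), and DESeq2 with all 6 libraries called 3475, of which 1765 were among the 1836.

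**Figure D5:**
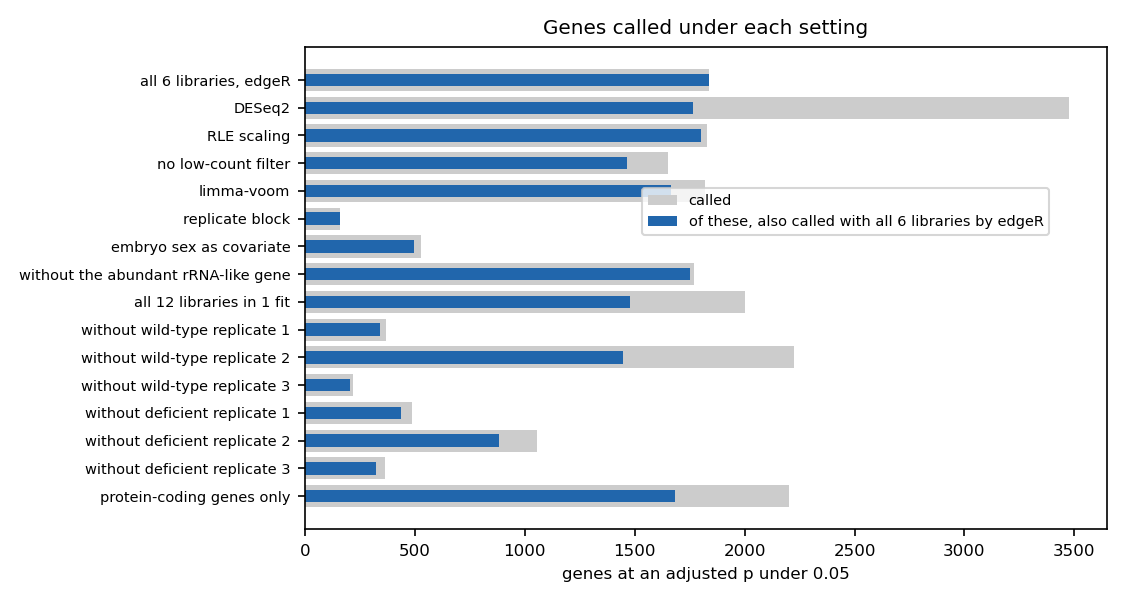
Number of genes at an adjusted p under 0.05 (horizontal axis) under each setting in grey, and in blue those also called by edgeR with all 6 libraries. Leaving out WT3 gives 218 calls, of which 203 are among the 1836, and DESeq2 gives 3475.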

How the data were processed

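RNA of 1 pair of forelimb buds per library was sequenced as 85 bp single-end reads from SMARTer cDNA, per the labels' protocols. The authors deposited RSEM expected counts per gene, 1 file per library. The submitters' processing notes name FastQC 0.11.4, STAR 2.5.2, RSEM 1.3.0 and the mm10 build, without their settings. Of 53465 genes, 53360 got a symbol from the GENCODE M21 annotation of GRCm38.

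Expected counts were rounded and genes filtered with filterByExpr (minimum count 10, minimum total 15). The 6 libraries were scaled by TMM and fitted alone in edgeR 4.0.16 (R 4.3.3; quasi-likelihood test, Benjamini-Hochberg adjustment over all 17488 genes, threshold 0.05). Log2 fold changes use edgeR's prior count of 0.125. The fitting code was tested on simulated counts. Alternatives used DESeq2 1.42.0, limma 3.58.1, RLE scaling, no filter, other covariates and gene sets, and each library left out in turn.

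The 47 gene lists and the comparison itself were chosen with earlier results of these data known. Named genes are Hand2; of the called genes that have a curated symbol, at least 5 CPM and no overlap, the 20 that rose most and the 20 that fell most; all anterior, posterior and Hedgehog response members; from every further list at most 6 that passed; and the 10 genes with the smallest adjusted p. Members that did not pass were picked from the lists for their known role, with their values already seen. Reads that fit near-identical copies are divided by RSEM's estimate, so such genes are uncertain. Values of a few genes are not reported here, although counts and medians include them.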

Additional observations from a re-analysis of the deposited data

How the results depend on the processing

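No named gene called with all 6 libraries or under another setting reversed its direction there, where it had a value. The settings share libraries, so this is no independent check. The number of genes called moved. DESeq2 called 3475 genes (1436 higher, 2039 lower). With embryo sex as a covariate edgeR called 526 (272 higher, 254 lower). With 1 library left out it called 218 to 2223 genes, 98 to 993 of them higher and 120 to 1230 lower, the lowest without WT3 and the highest without WT2. Counts under RLE scaling (1827), no filter on low counts (1653), limma-voom (1822), without the abundant ribosomal RNA gene (1768), with all 12 libraries in 1 fit (2004) and among protein-coding genes only (2201, an alternative added after seeing the data) stayed within 1.5 times of 1836. Whether replicate numbers pair the libraries is not known, as the labels name no litter. Deviations from the group means correlated at -0.128, 0.031 and 0.027 between libraries of the same number. Between libraries of different numbers they correlated at -0.151 to 0.13. A fit with the replicate number as a block gave 161 calls (75 higher, 86 lower), 158 of them among the 1836. With 3 libraries per group and 1 library rich in ribosomal RNA, small changes pass or fail with single libraries. The cause of these differences was not tested.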

Other observations

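Some of the most certain changes lay in genes that belong to families of close copies, chosen here after their values were seen. On chromosome 2, Gm13691 and its copies Gm13693, Gm13694, Gm13696, Gm13697 and Gm13698 were at 0.0205 to 0.086 CPM in the wild types and at 7.77 CPM in the deficient buds. The last 5 have the same values in every library, so their reads are shared. On chromosome 17, H2-Ab1 rose from 0.0981 to 2.03 CPM and H2-T24 from 0.393 to 1.85 CPM, beside H2-T22 (adjusted p = 0.00405 and 0.00388 in edgeR's quasi-likelihood test). On chromosome 14, D830030K20Rik, Gm8281, Gm3488 and Gm3636 rose (log2 fold changes 5.24, 4.16, 4.62 and 2.39). On chromosome 7 the serum amyloid genes Saa1 and Saa2 fell from 0.563 to 0.0202 CPM and from 0.705 to 0.0404 CPM. All of these were called in all 6 fits without 1 library.

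A few transcripts were at 0 in every library of 1 group. Against a floor of 3 counts per library, the pseudogene Gm45660 was at least 353-fold lower in the deficient buds and the pseudogene Gm10182 at least 258-fold higher. Gm32687 was at least 103-fold higher, Gm3468 at least 39.7-fold higher and Gsg1l2 at least 57.9-fold lower.

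In the Rpl34 and Rps18 pairs the pseudogene fell while the parent gene rose. Rpl34 was at 195.9 ± 2.02 CPM (SD, n = 3) in the wild types and 272.3 ± 9.85 CPM in the deficient buds, and Rpl34-ps1 at 170.0 ± 4.92 and 83.2 ± 2.41 CPM. Their sum was 365.9 ± 6.94 and 355.5 ± 12.2 CPM. Rps18 was at 336.5 ± 3.16 and 534.2 ± 29.1 CPM, and Rps18-ps3 at 148.5 ± 4.27 and 76.2 ± 4.49 CPM. This pair summed to 485.0 ± 7.31 and 610.4 ± 30.5 CPM. Pcna overlapped between the groups, at 395.0 ± 7.07 and 410.2 ± 14.4 CPM, while Pcna-ps2 fell from 113.4 ± 2.30 to 44.4 ± 3.65 CPM. Pcna with Pcna-ps2 summed to 508.4 ± 8.10 and 454.7 ± 17.4 CPM. Of the 183 genes called in all 6 fits without 1 library, 27 were pseudogenes, where 1098 of the 17488 genes tested were pseudogenes.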
